A study of Mus musculus with 8 samples.

Results

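B cells made up 770 of the 39608 cells kept from the brains of mice after a stroke (1.94%), among 39945 cells deposited. A cell was counted as a B cell when no more than 10% of its UMIs (unique molecular identifiers, each standing for 1 captured transcript) were mitochondrial and it met a rule on marker genes. The rule asked for at least 1 UMI of Cd79a, a signalling chain of the B cell receptor, and at least 3 UMIs of Cd79a, Ms4a1 and Ighm together. Ms4a1 encodes the surface protein CD20, and Ighm encodes the constant part of the IgM heavy chain. It also asked for no UMI of the T cell genes Cd3e and Cd3d, and at most 1 UMI each of the myeloid receptor genes Csf1r and Csf3r. The cells were thus chosen by their measured UMIs of these genes, and differences between them and other cells are described below without a test.

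The mice were male C57BL/6J, 8 to 9 weeks old, and their middle cerebral artery was blocked for 60 min and then reopened. Whole-cell suspensions of each hemisphere were taken 24 h or 48 h later from WT mice and from mice labelled Prdx1-/-, a genotype meant to lack peroxiredoxin 1, an enzyme that breaks down peroxides. The ipsilateral hemisphere is the side of the occlusion, and the contralateral hemisphere is the control; every group, controls included, had the occlusion. The labels do not say whether both hemispheres of a group came from the same brains. Each of the 8 combinations of genotype, hemisphere and time is 1 library, and the labels do not say how many animals went into it. Libraries that share a genotype, hemisphere or time therefore stand in as replicates below, and every p-value measures the spread between these libraries, not between animals.

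A B cell carries a receptor made of an immunoglobulin heavy and light chain held by the signalling chains Cd79a and Cd79b. It is made in the bone marrow, where the recombinase genes Rag1 and Rag2 cut and join the receptor genes and the surrogate light chain genes (Igll1, Vpreb1 and their relative Vpreb3) serve until a light chain exists. Mature follicular B cells then carry IgM and IgD, present antigen on MHC class II, and travel between blood and lymphoid tissue by receptors such as Ccr7, Cxcr5 and S1pr1. Few B cells are found in healthy brain tissue, apart from its borders.

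The markers the rule did not use went with the label. Levels are given as CPM (counts per 1e+06 UMIs), a gene's UMIs relative to all UMIs of the B cells of a library, as the lowest, median and highest of the 8 libraries. Pax5, the transcription factor that keeps B cell identity, was at 199.9, 291 and 411 CPM in B cells, against 0 CPM in T cells and at most 0.84 CPM in all other cells. Ebf1, which acts with Pax5, was at 1707, 2070.1 and 3342 CPM, and Cd79b was at 1162, 1642 and 2149 CPM. Besides Cd79a and Ms4a1, on which the cells were selected, the genes that set the B cells apart most from all other cells were Igkc, Vpreb3, Ebf1, Iglc2, Iglc1, Iglc3, Fcmr and Ly6d. Transcripts of T cells summed to between 6.21 and 45.1 CPM and those of NK cells to between 0 and 17.2 CPM.

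**Figure D1:**
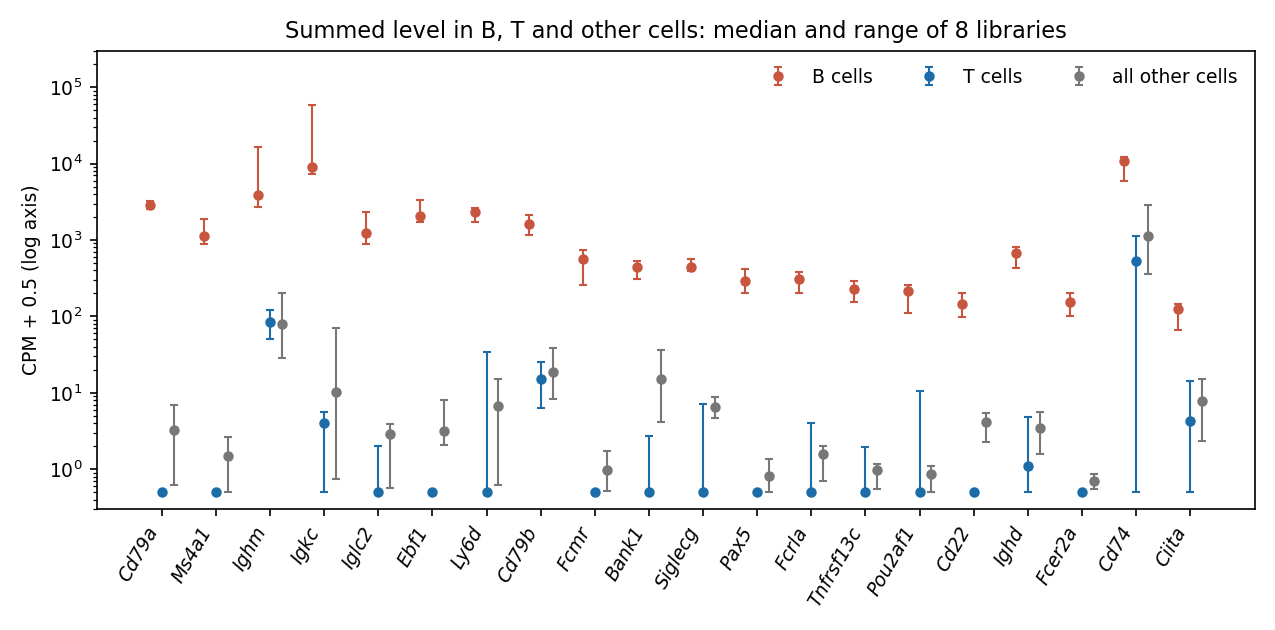
Levels of 20 genes in B cells (red), T cells (blue) and all other cells (grey), on a log axis of CPM plus 0.5; points are the median of 8 libraries and lines their range. Pax5 sat between 199.9 and 411 CPM in B cells and at 0 CPM in T cells.

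The values nearest the limits of the rule were as follows. No member had a marker sum of exactly 3 and 1 had a single Cd79a UMI, while 18 cells with a Cd79a UMI fell outside on a sum of 1 or 2. The exclusions removed 113 cells that had the B cell markers: 8 carried Cd3e or Cd3d, 83 carried more than 1 Csf1r UMI and 51 more than 1 Csf3r UMI. Another 171 cells had no Cd79a UMI but at least 3 of Ms4a1 and Ighm.

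Below, 8 values in a row follow 1 order of libraries: contralateral then ipsilateral WT at 24 h, contralateral then ipsilateral Prdx1-/- at 24 h, and the same 4 at 48 h. B cells numbered 45, 44, 10, 103, 109, 75, 82 and 302. Their median depth was 3451 to 4360 UMIs per cell, below that of T cells (5657 to 6483) and of all kept cells (7210 to 13197). Their summed UMIs ran from 45031 to 1285081, so 1 UMI was worth 22.2 CPM in the shallowest library, the contralateral Prdx1-/- one at 24 h, and 0.778 CPM in the deepest. A pair of libraries shared 3 to 17 cell barcodes, and no barcode was a B cell in both libraries of a pair.

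Prdx1 did not follow the genotype label in B cells at 24 h, though the contralateral library labelled Prdx1-/- rests on 4 UMIs. Prdx1 (chr4:116685599-116700000, GRCm38) stood at 229.6, 183, 88.8, 149, 196, 209.8, 0 and 4.67 CPM in B cells, from 56, 37, 4, 72, 96, 64, 0 and 6 UMIs. The 48 h libraries labelled Prdx1-/- were at or near 0, where a count of 0 allows up to 8.62 CPM, while those at 24 h held 88.8 and 149 CPM. After thinning each cell to 2000 UMIs, a Prdx1 UMI was seen in 20.0% and 16.7% of B cells of the 24 h libraries labelled Prdx1-/- (40.0% and 25.2% unthinned) and in 24.4% to 34.1% of those of the 4 WT libraries (42.2% to 56.0% unthinned). In T cells of the same 24 h libraries labelled Prdx1-/- the shares were 5.6% (contralateral) and 29.5% (ipsilateral), against 31.25% to 46.7% in the 4 WT libraries. The contralateral library was thus far below the WT range in T cells, and the ipsilateral one just below it. In the edgeR fit of all genes (described below), the genotype label gave Prdx1 a value of -2.45 as log2 fold change (SE 1.16, adjusted p = 1.0). Without both 24 h libraries labelled Prdx1-/- it was -5.71 (SE 0.41, adjusted p = 1.2e-05). The comparisons of genotype labels are therefore also given without those libraries.

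Among the heavy chain genes counted, the transcripts were mostly those of IgM and IgD. Ighd, the constant part of IgD, stood at 435, 663, 799, 543, 528, 688, 762 and 715 CPM, against at most 4.32 CPM in T cells, and at a fixed 2000 UMIs per cell it was seen in 40.0% to 74.3% of B cells. The switched isotypes counted were near absent: all 770 cells together held 0 UMIs of Ighg2b, 3 of Ighg3 and 7 of Igha. Ighg1, Ighg2c and Ighe are not among the genes counted, so a switch to those isotypes could not be seen. None of the 6 germinal centre genes in the table was abundant enough to test. Cd5, a marker of B1 cells, had 5 UMIs.

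The 2 cells of the contralateral WT library at 48 h with at least 100 UMIs of Jchain, which joins secreted IgM and IgA, held 385 and 1791 of them. They held 19547 and 33060 UMIs in all, against a median of 3851 in the B cells of that library. They were also the B cells of that library left out by the highest doublet scores, and whether they were doublets was not tested. Those 2 cells carried 85.7% of the Igkc, 80.0% of the Ighm, 83.3% of the Xbp1 and 100% of the Jchain UMIs of their library's 109 B cells. Xbp1 is the transcription factor of the secretory program of plasma cells. With them Igkc stood at 58538 CPM in that library and without them at 9385 CPM, against 7365 to 10536 CPM in the other 7. Light chain UMIs were mixed in most cells. Of 768 cells with at least 5 light chain UMIs, 170 (22.1%) had at least 90% from Igkc. Another 36 (4.69%) had at least 90% from the Iglc genes, and 562 lay between. By library, the share with at least 90% from Igkc ran from 3.66% to 33.3%. Whether the cells between made both kinds of light chain themselves was not tested. T cells held at most 5.02 CPM of Igkc.

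Genes of antigen presentation and homing were widely expressed. Cd74, the invariant chain that escorts MHC class II, stood at 5860.1, 10819 and 12323 CPM (lowest, median and highest library). H2-Aa, a class II chain, was at 1292, 2971 and 3504 CPM, and Ciita, the master regulator of class II genes, at 65.6, 123 and 144 CPM. Ccr7, the receptor that guides cells to lymphoid tissue, was at 267, 571 and 693 CPM. Fcer2a, the IgE receptor CD23 of follicular B cells, was at 102, 153 and 201 CPM. Tnfrsf13c, the receptor for the survival factor BAFF, was at 155, 229 and 289 CPM.

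Cytokine genes were sparse, with the exception of Ltb, which builds lymphotoxin, at 303, 427 and 819 CPM. Il6 had 0 UMIs among all 770 cells and Tnf had 55. Il10 also had 55 UMIs, and it stood at 106 CPM in the contralateral WT library at 48 h against 0 to 22.2 CPM in the other 7, the 22.2 being 1 UMI. Cells in cycle, with at least 2 UMIs of Mki67 and Top2a together, numbered 14 of 770 (1.82%, 95% exact interval 0.997% to 3.03%).

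B cells took up 0.949%, 0.83%, 0.192%, 1.81%, 2.62%, 1.46%, 1.90% and 5.98% of the cells kept in each library. The ipsilateral Prdx1-/- library at 48 h was the highest (95% exact Clopper-Pearson interval 5.34% to 6.67%) and the contralateral Prdx1-/- one at 24 h the lowest (0.0923% to 0.353%). These intervals cover counting error only. Per T cell, B cells numbered 1.61, 0.786, 0.278, 0.972, 1.11, 0.615, 1.24 and 3.32.

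The share of B cells was higher at 48 h than at 24 h in each of the 4 matched pairs of libraries, but no factor passed the test and the order depended on the denominator. It was 0.944% ± 0.664 (SD, n = 4) at 24 h and 2.99% ± 2.05 at 48 h, a difference of 1.86 in mean log2 odds (exact two-sided permutation test, p = 0.0571, adjusted over the 3 factors 0.171). The smallest p that 4 libraries against 4 allow is 0.0286. T cells went from 1.05% ± 0.576 to 2.02% ± 0.420 and NK cells from 0.237% ± 0.164 to 0.689% ± 0.157 of cells over the same interval. Of cells other than microglia, the share of B cells was lower at 48 h in both WT pairs (24.9% to 22.6% and 3.14% to 3.01%) and higher in both pairs labelled Prdx1-/- (7.94% to 13.9% and 4.47% to 9.54%). That gave a time difference of 0.46 (exact permutation p = 0.629). Of B, T and NK cells together, both WT pairs were lower at 48 h as well, at 0.811 and 0.83 times the 24 h share. B cells per T cell differed by 0.76 on the log2 scale between times (exact permutation p = 0.371, adjusted 0.914).

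Between hemispheres the share was 1.42% ± 1.07 on the contralateral and 2.52% ± 2.34 on the ipsilateral side (difference 0.98 in log2 odds, exact permutation p = 0.457, adjusted 0.686). Between genotype labels it was 1.47% ± 0.818 in WT and 2.47% ± 2.47 in Prdx1-/- (difference 0.11, exact permutation p = 0.943, adjusted 0.943). Without both 24 h libraries labelled Prdx1-/- that difference was 1.39 (exact permutation p = 0.267, adjusted 0.4). The denominator decided the direction between hemispheres: of cells other than microglia, B cells made up 17.3% ± 7.84 on the contralateral and 5.04% ± 3.07 on the ipsilateral side (difference -2.02, exact permutation p = 0.0571, adjusted 0.171). Of B, T and NK cells together, they made up 41.5% ± 15.3 and 46.9% ± 16.5.

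In both WT pairs the ipsilateral share was below the contralateral one, by a mean of -0.52 on the log2 scale. In both pairs labelled Prdx1-/- it was above, by a mean of 2.44. The difference of 2.96 has an exact permutation p of 0.333, the smallest that 2 pairs against 2 allow. Without the 24 h libraries, 1 pair per label remains and there is no test: the log2 ratio was -0.84 in WT and 1.66 in Prdx1-/- at 48 h. Of cells other than microglia, the ipsilateral share was lower in all 4 pairs, by a mean of -2.95 in WT and -0.69 in those labelled Prdx1-/-.

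**Figure D2:**
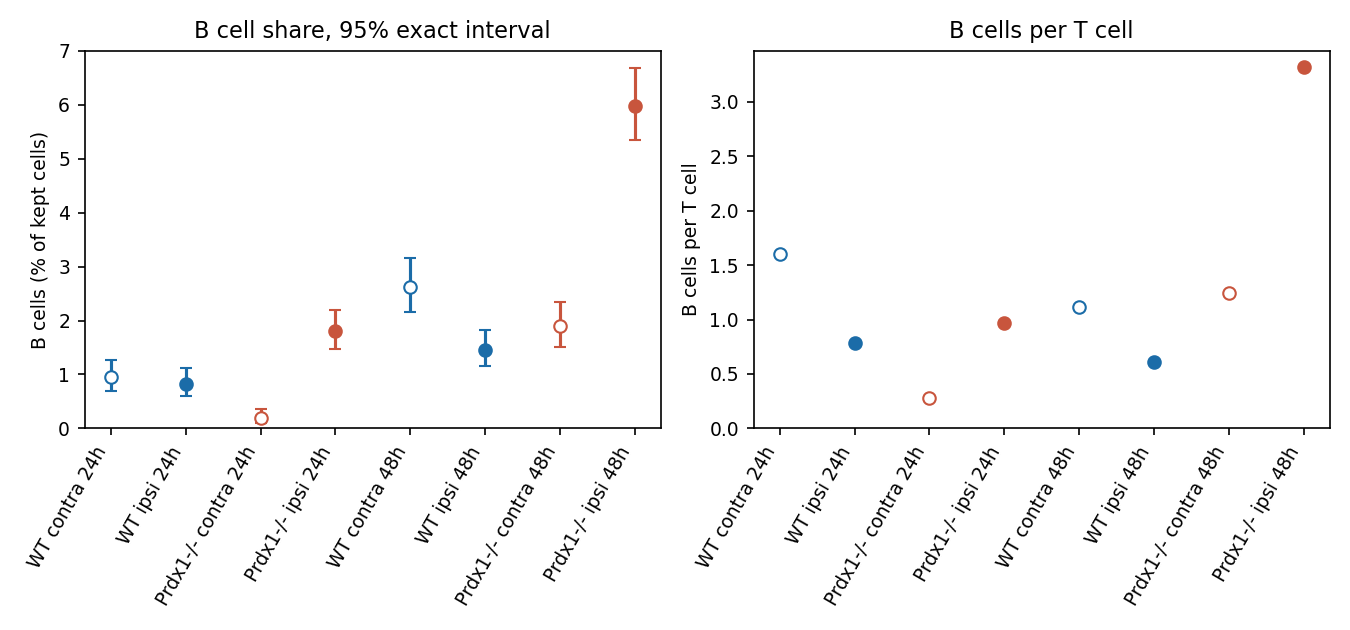
B cells as a percentage of kept cells with 95% exact intervals, and B cells per T cell, in each of the 8 libraries (open symbols contralateral, filled ipsilateral). The ipsilateral library labelled Prdx1-/- at 48 h stands highest on both scales, at 5.98% and 3.32.

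The B cells ranged from early to mature by their transcripts, and the early share was highest in 1 library. Each cell was thinned to 2000 UMIs (765 of 770 were deep enough) and its UMIs of 12 early B cell genes were counted, among them Rag1, Igll1, Vpreb1, Sox4 and Dntt, but not Vpreb3. At least 3 such UMIs were found in 59 cells (7.71%, 95% exact interval 5.92% to 9.84%). This is a range of a score and not a separate type: 13 cells had exactly 3, 22 had exactly 2 and 605 had 0. Before thinning, 95 cells had at least 3. The list is not particular to B cells: 11.1% to 54.9% of T cells per library reached 3 UMIs, and genes such as Il7r and Lef1 are also known from T cells. The median cell of that early range had 1 UMI of MHC class II genes, against 51 in cells with 0 early UMIs, and Ighd was seen in 10 of 59 against 439 of 605.

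The early range took 33.3% (15 of 45) of B cells in the contralateral WT library at 24 h, with an interval of 20.0% to 49.0%. The other 7 libraries had 3.70% to 10.0%. Rag1, which no T cell held at that depth, was seen in 22.2% of its B cells after thinning and in 0% to 5.6% elsewhere. Rag1 stood at 159.9 CPM in that library and at 0 to 44.8 CPM in the rest, and Sox4, a transcription factor of early lymphocytes, at 668 CPM against 44.4 to 157 CPM. The summed level of the MHC class II list was lowest there, at 10244 CPM against 18319 to 23964 CPM in the other libraries. Since each combination is 1 library, a feature of that library and of its group cannot be told apart.

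**Figure D3:**
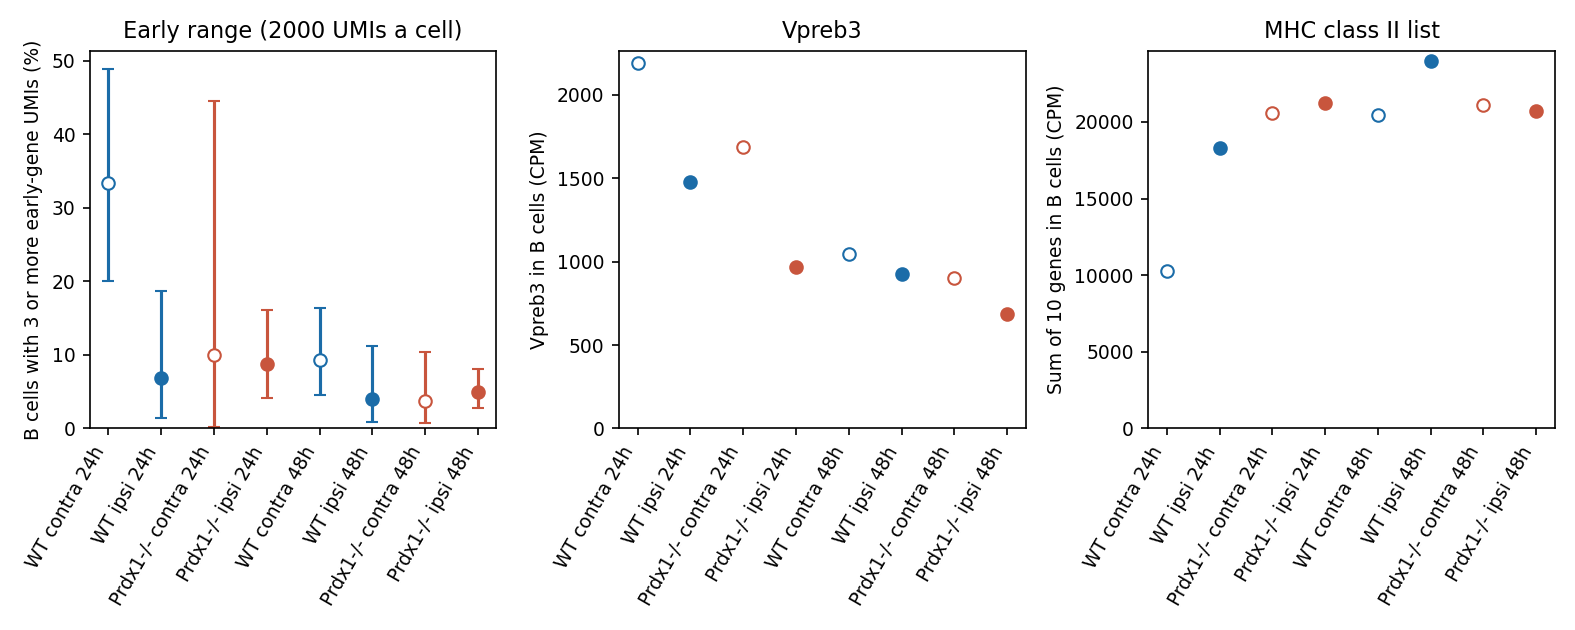
Percentage of B cells in the early range at 2000 UMIs per cell, Vpreb3 in CPM and the summed MHC class II list in CPM, for each of the 8 libraries. The contralateral WT library at 24 h is highest for the early range (33.3%) and for Vpreb3 (2189.8 CPM) and lowest for MHC class II (10244 CPM).

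Gene levels were compared across all 8 libraries with edgeR (quasi-likelihood test; hemisphere, genotype and time as additive terms; p adjusted by Benjamini and Hochberg over the 4963 genes tested), with adjusted p under 0.05 as the threshold. Between 24 h and 48 h, 14 genes passed (0.282% of those tested), 4 higher at 48 h (0.0806%) and 10 lower (0.201%). Among the lower genes were Vpreb3 of the early list (1 of 8 tested), and Cd24a and Cd72 of the identity list (2 of 22). Gpr183 of the homing list (1 of 11) was among the higher ones. All 8 early genes tested had a negative fold change (median -1.32 on the log2 scale, against 0.009 over all genes). The early list summed to 3863 CPM in the contralateral WT library at 24 h and 3087 CPM in the contralateral Prdx1-/- one at 24 h. The other libraries held 917 to 1827 CPM, with overlap between times. The direction without those contralateral libraries is not given here. The members of that list that did not pass included Rag1 and Sox4. Overlap between groups of libraries is given below as a description of levels. The genes named were picked by p-value, so a lack of overlap is no further support. Genes without overlap were not counted over all genes tested.

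Vpreb3, a chaperone-like relative of the surrogate light chain, stood at 2189.8, 1475, 1688, 965, 1046, 928, 902 and 688 CPM. Its level was 1579.6 ± 507 CPM (SD, n = 4) at 24 h and 891 ± 149 CPM at 48 h, and the lowest 24 h library lay below the highest 48 h one. It was lower at 48 h in 4 of 4 matched pairs, with log2 fold change -0.75 (SE 0.11, adjusted p = 0.00177). Under every alternative run it stayed past the threshold, with adjusted p from 0.00013 to 0.037.

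Cd24a, a surface glycoprotein that is high on immature B cells, stood at 533, 446, 511, 267, 226, 236, 213 and 209 CPM. The 24 h libraries all lay above those at 48 h (439 ± 120.5 against 221 ± 12.4 CPM; log2 fold change -0.87, SE 0.17, adjusted p = 0.0212). Cd72, an inhibitory co-receptor, stood at 549.5, 460.4, 355, 279.7, 324, 233, 187 and 179.8 CPM, and it fell by 0.79 on the log2 scale (SE 0.16, adjusted p = 0.025). Its libraries overlapped between times, while each 48 h library was below its 24 h match.

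These genes were also measured in the cells of each library with no early UMI. There Cd24a stood at 366, 296, 356, 206, 166, 124, 173 and 155 CPM, again with no overlap between times. Vpreb3 stood at 1181, 629, 445, 449, 516, 612, 635 and 520.4 CPM in those cells, with the 48 h libraries inside the range of the 24 h ones. Cd72 stood at 285, 240.4, 178, 123, 219, 163, 158 and 125 CPM, with overlap. Over all libraries, cells with at least 3 early UMIs before thinning held 2820 CPM of Vpreb3, those with 1 or 2 held 1057 CPM and those with 0 held 557 CPM.

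The Vpreb3 promoter is shown because it holds an octamer, the ATGCAAAT element bound by the factors Oct-1 and Oct-2 in B cell genes. Of the 10 genes lower at 48 h, 5 matched a RefSeq promoter, and only that of Vpreb3 held an octamer. On either strand it occurs in 526 of 32851 mouse promoters of 250 bases (1.60%). The 250 bases before an annotated Vpreb3 start (RefSeq, GRCm38.p6, chr10:75948050-75948299, plus strand) are given 5′ to 3′ with the octamer in capitals, 45 bases before that start in its reverse orientation; the start lies inside the annotated bounds of the gene.
Vpreb3: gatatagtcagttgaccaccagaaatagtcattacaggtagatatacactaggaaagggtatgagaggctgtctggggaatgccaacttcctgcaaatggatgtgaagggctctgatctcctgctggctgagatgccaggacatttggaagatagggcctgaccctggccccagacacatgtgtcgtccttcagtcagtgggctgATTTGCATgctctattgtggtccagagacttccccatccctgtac
A match of letters describes the sequence and does not show binding.

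Among the genes higher at 48 h, Gpr183 was the 1 of 11 homing genes that passed. Gpr183, the oxysterol receptor EBI2 that positions B cells in follicles, stood at 57.4, 119, 22.2, 53.9, 118, 177, 80.5 and 142 CPM, with overlap between times and log2 fold change 1.06 (SE 0.23, adjusted p = 0.0474). All 11 homing genes had a positive fold change (median 0.35). The homing list summed to 2989, 3258, 3198, 2376, 3147, 3219, 2946 and 3394 CPM. That sum was lower at 48 h in the ipsilateral WT and the contralateral Prdx1-/- pair. It was lowest in the ipsilateral Prdx1-/- library at 24 h, and the direction of the genes without that library is not given here. MHC class II members did not pass either, with 10 of 10 positive and a median of 0.47. Their sum was lowest in the contralateral WT library at 24 h, and the direction without that library is not given here. H2-Aa had log2 fold change 0.53 (SE 0.21, adjusted p = 0.528). The 51.0% of all tested genes with a positive fold change is the background for these counts.

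Cebpb, a transcription factor of inflammatory and myeloid genes, stood at 123, 203, 178, 259, 395, 515, 356 and 464 CPM. All 4 libraries at 48 h lay above all 4 at 24 h (433 ± 70.5 against 191 ± 56.4 CPM), with log2 fold change 1.22 (SE 0.18, adjusted p = 0.00156). Cebpb was also higher on the ipsilateral side in each matched pair. Its level in other cells is not given here, and the part of their transcripts in its difference was not tested. Rps24, a protein of the small ribosomal subunit, rose by 0.34 on the log2 scale (SE 0.07, adjusted p = 0.0212), from 7752 ± 657 to 9609 ± 656 CPM without overlap. Lyz2, the lysozyme gene of macrophages and neutrophils, is described with the hemispheres below.

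The other genes lower at 48 h included Pafah1b3, an enzyme subunit, at 783, 292, 311, 255, 255, 167, 207 and 128 CPM (log2 fold change -1.08, SE 0.18, adjusted p = 0.00507). Xrcc6, the Ku70 protein that joins DNA ends in repair and V(D)J recombination, stood at 242, 49.5, 333, 64.2, 59.1, 45.9, 34.5 and 24.1 CPM. It was high only in the contralateral libraries at 24 h, and fell by 1.71 (SE 0.31, adjusted p = 0.0222). Cnp, a phosphodiesterase best known from oligodendrocytes, went from 422 ± 64.1 to 241 ± 61.1 CPM (log2 fold change -0.83, SE 0.17, adjusted p = 0.034), while all other cells held 30.2 to 47.0 CPM.

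Trf, the transferrin gene, had the lowest adjusted p of the 14: it stood at 77.9, 139, 88.8, 309, 12.2, 9.83, 25.9 and 20.2 CPM, with log2 fold change -3.38 (SE 0.31, adjusted p = 1.25e-06) and no overlap. Other cells held 225 to 812 CPM of Trf, and the part of their transcripts in this result was not tested. Also lower were AC160336.1 (-1.09, SE 0.18, adjusted p = 0.0046), Car2 (-2.03, SE 0.38, adjusted p = 0.0222) and Tubb4a (-5.18, SE 0.94, adjusted p = 0.034). Tubb4a rested on the contralateral WT and ipsilateral Prdx1-/- libraries at 24 h, at 102.5 and 68.4 CPM against 0 to 4.95 CPM elsewhere, and was not lower in every matched pair. The gene lists of other cell types used here held no list for oligodendrocytes. The part of oligodendrocyte transcripts in Cnp, Trf, Car2 and Tubb4a was therefore not tested.

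**Figure D4:**
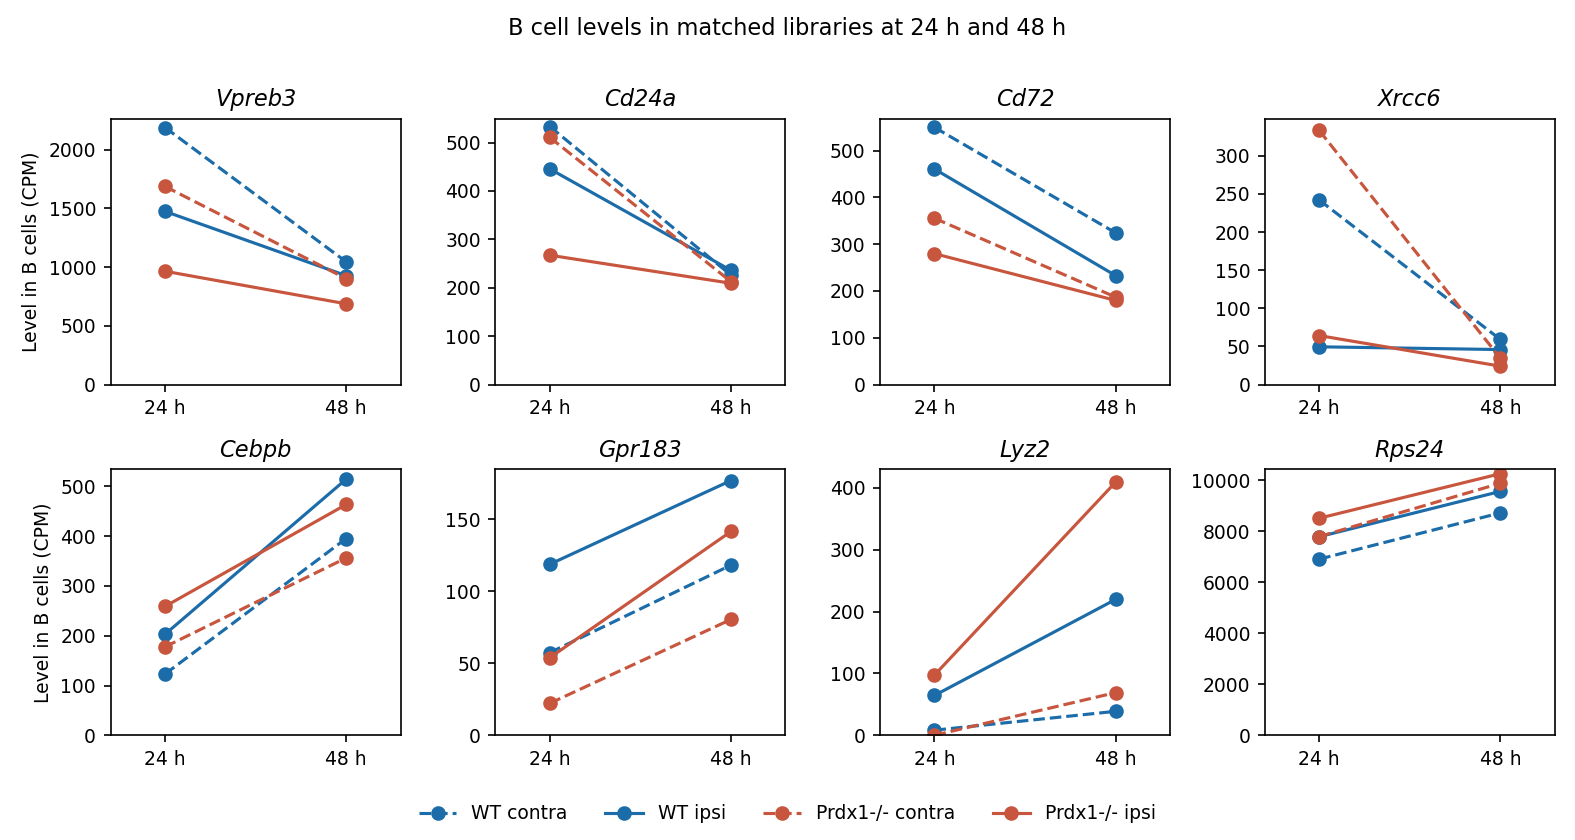
Levels in B cells in CPM of 8 genes at 24 h and 48 h, with lines joining matched libraries (blue WT, red Prdx1-/-; dashed contralateral, solid ipsilateral). Vpreb3, Cd24a and Cd72 are lower and Cebpb higher at 48 h in each of the 4 pairs.

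Several time differences depended on single libraries. Without the contralateral WT library at 48 h, Cd24a, Cd72, Gpr183, Xrcc6, Pafah1b3, Rps24, Car2 and Tubb4a no longer passed (adjusted p 0.0581 to 0.157), and without the contralateral Prdx1-/- one at 48 h 8 genes did not (0.075 to 0.187). Vpreb3, Cebpb, Lyz2 and Trf passed with each library left out. The number of calls was 52 without the ipsilateral WT library at 24 h, 41 without the contralateral Prdx1-/- one at 24 h, and 9 without each contralateral library at 48 h in turn.

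Between hemispheres, 16 genes passed (0.322% of 4963), 8 higher (0.161%) and 8 lower (0.161%) on the ipsilateral side. No member of the B identity (22 tested), B cell receptor (16), early (8), MHC class II (10), homing (11) or activation (13) lists was among them. Among the higher genes were Socs3, Bcl3, Sbno2 and Trim25, with no overlap between hemispheres, and among the lower ones were 4 of the 7 microglial genes tested.

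Socs3, the feedback inhibitor of JAK and STAT cytokine signalling (chr11:117966079-117970336), stood at 28.7, 84.2, 22.2, 145, 32.6, 134, 57.5 and 136 CPM. All 4 ipsilateral libraries lay above all contralateral ones (125 ± 27.6 against 35.3 ± 15.4 CPM; log2 fold change 1.68, SE 0.26, adjusted p = 0.0026). Socs3 kept its call without each library in turn, and lost it in the 48 h libraries alone (adjusted p = 0.146).

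Bcl3, a nuclear partner of NF-kB, stood at 16.4, 64.4, 0, 53.9, 14.3, 62.3, 17.2 and 49.0 CPM (log2 fold change 1.91, SE 0.36, adjusted p = 0.0164). Sbno2, a transcriptional regulator in cytokine responses, went from 43.4 ± 15.3 CPM to 115 ± 34.9 CPM (1.33, SE 0.27, adjusted p = 0.0276). Trim25, the ubiquitin ligase that activates the RNA sensor RIG-I, stood at 107, 149, 88.8, 218, 143, 328, 129 and 219 CPM (0.96, SE 0.21, adjusted p = 0.0436). None of these 3 genes overlapped between hemispheres, a description of genes that were picked by p-value. Trim25 was at 21.0 to 168 CPM in all other cells. In B cells it was at 88.8 to 143 CPM in the contralateral and 149 to 328 CPM in the ipsilateral libraries. The part of transcripts from other cells in its difference was not tested.

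The promoters of Socs3, Sbno2 and Ifitm6 are shown because, of the 8 genes higher on the ipsilateral side, these 3 held the spaced palindrome TTCNNNGAA to which STAT factors bind. It was found in 4 of the 10 promoters matched to the 8 genes and in 2306 of 32851 mouse promoters of 250 bases (7.02%). Sbno2 alone gave 3 of those 10 promoters and 2 of the 4 with the palindrome. None of the 4 promoters matched to genes lower on the ipsilateral side held it. These counts are small and were not tested against the share over all promoters. Each stretch is from RefSeq (GRCm38.p6), on the minus strand of the genome, 5′ to 3′, with the palindrome in capitals; they lie at chr11:117969502-117969530, chr10:80102710-80102738, chr10:80101193-80101221 and chr7:141016893-141016912, with the palindrome 154, 26, 24 and 10 bases before an annotated start; the Socs3 and Sbno2 starts lie inside the annotated bounds of their genes.
Socs3: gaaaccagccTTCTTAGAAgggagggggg
Sbno2, first start: gccgcgccccTTCGCAGAAgcggaagtgc
Sbno2, second start: ccggctctgcTTCCCGGAAtgcctgtgag
Ifitm6: ccatatgaacTTCCTTGAAa
The pattern reads the same on both strands, and no binding was measured here.

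The other higher genes were held at higher levels by cells other than B cells. This does not set them apart from Socs3, Bcl3 and Sbno2, whose levels in other cells are not given here. The part of transcripts from other cells in the differences of Socs3, Bcl3 and Sbno2 was not tested. Lyz2 stood at 8.20, 64.4, 0, 97.4, 38.7, 219.6, 69.0 and 409 CPM, higher on the ipsilateral side in 4 of 4 pairs (log2 fold change 2.60, SE 0.25, adjusted p = 3.58e-06) and at 48 h in 4 of 4 pairs (2.0, SE 0.25, adjusted p = 0.000129). Those levels were at most 4.46% of the Lyz2 level of all other cells. Cxcl2, a neutrophil chemokine, stood at 8.20, 74.3, 0, 182, 18.3, 167, 25.9 and 103 CPM (2.87, SE 0.44, adjusted p = 0.0164), at most 4.03% of the level in other cells. Lgals3, a galactose-binding lectin, had log2 fold change 1.79 (SE 0.33, adjusted p = 0.0164), and did not pass without the cells of the highest doublet scores (adjusted p = 0.367). Ifitm6, a member of the interferon-induced transmembrane family, rose by 3.56 (SE 0.71, adjusted p = 0.0276), in 3 of 4 pairs.

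Among transcripts of other cell types, the neutrophil and erythrocyte sums were higher on the ipsilateral side in 3 of the 4 pairs, the exception being the WT pair at 48 h. The neutrophil list summed to 144, 431, 22.2, 603, 391, 384, 216 and 10805 CPM, and S100a8, a calcium-binding protein of neutrophils, to 36.9, 134, 0, 180.2, 36.7, 141, 54.6 and 3923 CPM. At 2000 UMIs per cell, S100a8 was seen in 6.7%, 25.0%, 0%, 34.3%, 10.2%, 24.0%, 9.9% and 54.0% of B cells, where 0 of 10 cells allows up to 30.0%; unthinned it was 0% to 74.5%. In T cells, which should lack it, the shares at 2000 UMIs were 3.57%, 16.1%, 0%, 30.5%, 8.33%, 11.5%, 7.58% and 54.9%. Hemoglobin and other erythrocyte transcripts reached 30842 and 16458 CPM in the ipsilateral Prdx1-/- libraries at 24 h and 48 h, against 22.2 to 317 CPM in the other 6. Without the cells described next, those sums were 638 and 565 CPM, and the neutrophil sum of the ipsilateral Prdx1-/- library at 48 h was 1155 CPM. In 15 B cells over 1% of UMIs came from 50 genes of other cell types, 8 of them in the ipsilateral Prdx1-/- library at 48 h and 3 in that at 24 h; the median cell held 0.203% to 0.304% in each library. Without those 15 cells 22 genes passed, 15 higher and 7 lower, and of the 14 called genes that could still be fitted 13 kept their call and Sparc lost it (adjusted p = 0.933). The part of free RNA from other cells in these differences was not tested.

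Rhob, a small GTPase, stood at 234, 49.5, 178, 47.6, 147, 45.9, 74.7 and 44.4 CPM, with each ipsilateral library below each contralateral one (log2 fold change -1.50, SE 0.25, adjusted p = 0.00565). Its level was 5.13% to 16.0% of that in other cells. C1qa, a chain of complement C1q, stood at 180.4, 59.4, 155, 60.1, 83.6, 42.6, 106 and 31.1 CPM (-1.45, SE 0.23, adjusted p = 0.00412), at 1.13% to 3.02% of the level in other cells. C1qb (-1.57, SE 0.28, adjusted p = 0.0164) and C1qc (-1.37, SE 0.30, adjusted p = 0.0439) fell with it.

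In all, 4 of 7 tested microglial genes were lower: the 3 C1q genes and Sparc, a matrix protein (-1.67, SE 0.36, adjusted p = 0.0436), whose call was lost without the 15 cells. The microglia list summed to 1427, 960.5, 1421, 727, 1506, 1701, 1247 and 737 CPM in B cells. In all other cells the list summed to 41851 to 73415 CPM on the contralateral and 7468 to 30285 CPM on the ipsilateral side. In B cells the list was lower on the ipsilateral side in 3 of 4 pairs; without the 15 cells it was lower in 4 of 4, at 1427, 960.5, 1421, 740.4, 1212, 593, 1099 and 519 CPM. Its part in the difference was not tested. Rgs1, a regulator of G protein signalling that damps chemokine responses, stood at 119, 59.4, 44.4, 33.1, 161, 22.9, 152 and 62.3 CPM (-1.51, SE 0.30, adjusted p = 0.0423). Gm26522 (-2.25, SE 0.38, adjusted p = 0.00621) and Sparcl1 (-4.76, SE 0.64, adjusted p = 0.00134) completed the list; Sparcl1 stood at 98.4 and 153 CPM in the contralateral WT libraries and at 17.2 CPM or less in the rest.

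**Figure D5:**
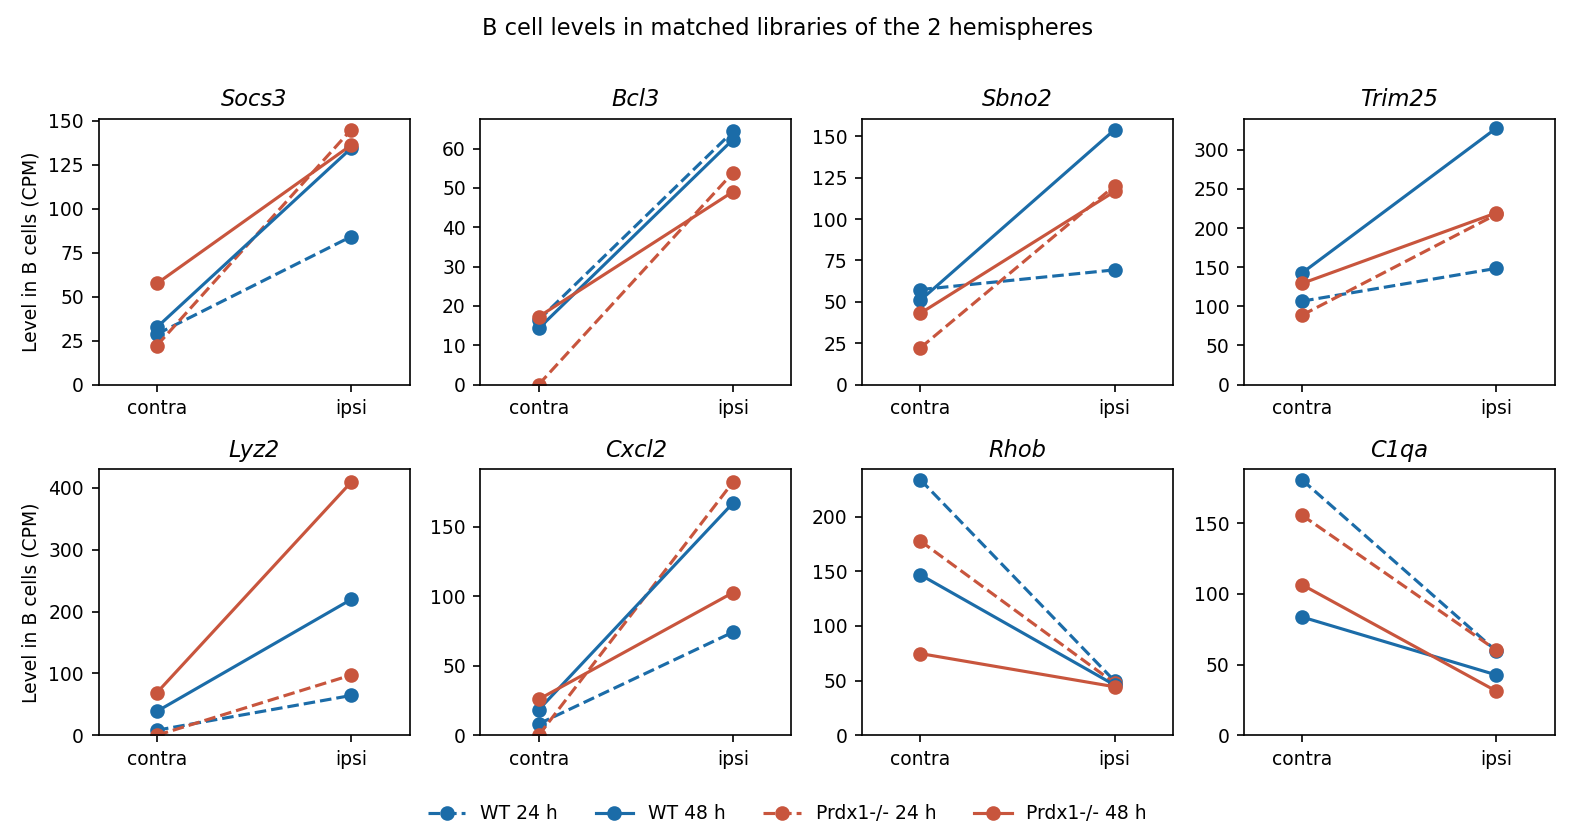
Levels in B cells in CPM of 8 genes in the contralateral and ipsilateral hemisphere, with lines joining matched libraries (blue WT, red Prdx1-/-; dashed 24 h, solid 48 h). Socs3, Bcl3, Sbno2 and Trim25 are higher and Rhob and C1qa lower on the ipsilateral side in each of the 4 pairs.

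Cxcr4, the receptor for the stromal chemokine CXCL12, stood at 611, 322, 799, 323, 599, 439, 644 and 509 CPM. Each ipsilateral library lay below each contralateral one (398 ± 92.0 against 663 ± 92.7 CPM), but the difference did not pass (log2 fold change -0.69, SE 0.16, adjusted p = 0.0781). Cxcr5, the follicle homing receptor, had log2 fold change 0.81 (SE 0.27, adjusted p = 0.36). The 8 early genes had negative fold changes throughout (median -0.95), and none passed. The 10 MHC class II genes were positive throughout (median 0.27), and none passed. Of all tested genes, 50.5% had a positive fold change. The contralateral WT library at 24 h was highest for the early list and lowest for the MHC class II list. Both directions without that library are not given here.

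The hemisphere calls were spread unevenly over libraries. Without the contralateral Prdx1-/- library at 48 h, 11 of the 16 no longer passed (Bcl3, C1qa, C1qb, C1qc, Cxcl2, Gm26522, Ifitm6, Rgs1, Sbno2, Sparc and Trim25; adjusted p 0.129 to 0.742), and without the ipsilateral WT one at 48 h, 10 did not (0.0739 to 0.647). Without the contralateral WT library at 48 h, 9 did not pass (0.0849 to 0.155). Lyz2 passed under each of those, and so did Socs3. The number of calls was 7 without the contralateral Prdx1-/- library at 48 h and 29 without the ipsilateral Prdx1-/- one at 48 h.

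Between genotype labels no gene passed (0% of 4963), with 206 genes at an unadjusted p under 0.05 and 0 calls by DESeq2. The lowest adjusted p was 0.0858, for Bpgm, an enzyme of red cell glycolysis, at 12.3, 14.9, 0, 91.2, 6.11, 6.56, 31.6 and 60.7 CPM (log2 fold change 2.43, SE 0.44); erythrocyte transcripts were highest in the same libraries. Pglyrp1, a peptidoglycan-binding protein of neutrophils, had 1.71 (SE 0.34, adjusted p = 0.142). Cdkn1a, the cell cycle inhibitor p21, stood at 57.4, 14.9, 66.6, 91.2, 14.3, 13.1, 60.4 and 86.4 CPM, so that all 4 libraries labelled Prdx1-/- lay above all WT ones (1.84, SE 0.38, adjusted p = 0.147). Cd72 had -0.64 (SE 0.16, adjusted p = 0.345), Sparcl1 -2.71 (SE 0.58, adjusted p = 0.211) and Sdf2l1, a chaperone partner of the endoplasmic reticulum, -1.88 (SE 0.47, adjusted p = 0.375). Without both 24 h libraries labelled Prdx1-/-, 6 genes passed, 2 higher (Mal and Chil3) and 4 lower (Prdx1, Cst3, Sparcl1 and Sdf2l1), named after their values were seen. Without them Bpgm had 2.73 (SE 0.57, adjusted p = 0.188), Cdkn1a 2.43 (SE 0.50, adjusted p = 0.188), Pglyrp1 1.98 (SE 0.36, adjusted p = 0.0571) and Cd72 -0.62 (SE 0.21, adjusted p = 0.997).

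By list, the genotype comparison gave 0 calls among 22 identity, 16 receptor, 8 early, 11 homing, 10 MHC class II and 10 tested NRF2 and antioxidant genes. All 10 MHC class II genes had a positive fold change (median 0.21), against 48.4% of all genes. Without both 24 h libraries labelled Prdx1-/-, 4 of the 10 were positive (median -0.07), so that direction rests on those libraries.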

How the data were processed

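The authors deposited raw UMI counts of every cell for 20340 genes in 8 libraries, with no normalization. Per the labels' protocols, perfused brains were digested to single cells, myelin was removed on Percoll, and live sorted cells entered a 10x Genomics 3′ kit. The submitters' processing notes name Cell Ranger, Seurat and mm10; versions are not given in the sources used here. All 8 tables were used.

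Cells with at most 10% mitochondrial UMIs were kept, and doublets were left in except in an alternative. Counts were summed over the B cells of each library and fitted with edgeR 4.0.16 (R 4.3.3; robust quasi-likelihood, TMM, filterByExpr, libraries with at least 10 B cells) with hemisphere, genotype and time as additive terms, Benjamini-Hochberg adjusted. CPM values were not TMM scaled. Shares were compared by exact permutation of log2 odds. Python 3.11.15, scipy 1.17.1, numpy 2.4.6, scanpy 1.11.5, pandas 2.3.3, statsmodels 0.14.6, matplotlib 3.10.9, limma 3.58.1 and DESeq2 1.42.0 were also used. On simulated hemisphere counts over 4654 genes, the fit recovered 54.2% of 2-fold and 98% of 4-fold changes and called 5 unchanged genes. The simulation gave every gene the same spread between libraries beyond counting error. It held no difference by time or genotype and no transcripts of other cell types. These rates therefore check the fit and do not give its power on the real libraries.

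The members and gene lists were chosen with earlier results of these data known. Named genes had adjusted p under 0.05, averaged 20 CPM or more and moved 1 way in all matched pairs, up to the 10 largest in each direction; where fewer than 3 passed, the 3 with the smallest p were named, and list members were given as levels. Ifitm6, Sparc, Sparcl1 and Tubb4a passed the threshold but moved differently in some pair and were named after their values were seen. The alternatives were other scaling, tests, filters, marker thresholds, denominators, doublets and left-out libraries. Some genes are not reported here.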

Additional observations from a re-analysis of the deposited data

Results flagged for a closer look

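Single libraries stood apart from the other 3 of their hemisphere, by a gap test at the 95% level, in 8 of 84 groups examined. Many of the genes examined were picked by p-value in these same data. The libraries of a hemisphere also differ by time and genotype, and some flags share the same cells. The count of flags therefore cannot be set against the 1 in 20 of the test, and the flags are descriptions. B cells per T cell were at 3.32 in the ipsilateral Prdx1-/- library at 48 h, and the nearest ipsilateral library was at 0.972. In the contralateral WT library at 48 h, Igkc stood at 58538 CPM (nearest 9551), Ighm at 16269 CPM (nearest 4353) and Jchain at 4435 CPM (nearest 0), and 2 cells carried 85.7%, 80.0% and 100% of those UMIs. The cells were chosen on Ighm, Cd79a and Ms4a1, which were among the groups examined, so the Ighm value is a description only. Pglyrp1 stood at 77.8 CPM in the ipsilateral Prdx1-/- library at 48 h (nearest 26.2). Sdf2l1 stood at 88.5 CPM in the ipsilateral WT library at 48 h (nearest 20.7). Tubb4a stood at 102.5 CPM in the contralateral WT library at 24 h (nearest 2.04) and at 68.4 CPM in the ipsilateral Prdx1-/- library at 24 h (nearest 4.95).

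The hemisphere ratio of the B cell share went opposite ways in the pairs labelled WT and Prdx1-/-, with a difference of 2.96 on the log2 scale. That of B cells per T cell did so as well, by 2.56 (means of -0.94 and 1.61). With 2 pairs against 2, the smallest exact permutation p is 0.333, so the difference could not be shown. The NK cell share also went opposite ways (1.58), and the T cell share did not (0.41). Nor did the B cell share of cells other than microglia, which was lower on the ipsilateral side in all 4 pairs (means of -2.95 and -0.69).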

How the results depend on the processing

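The labels do not pair the libraries, and each combination of genotype, hemisphere and time is 1 library. With each matched pair of libraries as a block in place of additive terms, 28 genes passed between hemispheres (16 higher, 12 lower), among them all 16, 26 between times (3 and 23), among them 13 of the 14 without Gpr183 (adjusted p = 0.055), and 9 between genotype labels (5 and 4), Bpgm, Cdkn1a, Pglyrp1 and Sparcl1 among them (adjusted p 0.0123 to 0.0321). Permuting within matched pairs gave p = 0.5, 1.0 and 0.125 for the B cell share by hemisphere, genotype and time (exact). The alternatives without both 24 h libraries labelled Prdx1-/-, without the 2 cells of high Jchain without cells over 1% transcripts of other cell types and with the block were chosen after seeing the data. Over cells other than microglia, the hemisphere difference in share was -2.02 and the genotype one -0.12, and the time one fell to 0.46 from 1.86; the cause was not tested. Leaving out 1 library gave share differences of 0.19 to 1.46 (hemisphere), -0.60 to 1.08 (genotype) and 1.22 to 2.30 (time), and differences in B cells per T cell of -0.22 to 0.62, -0.47 to 0.72 and 0.28 to 1.12. Without both 24 h libraries labelled Prdx1-/- the hemisphere difference in B cells per T cell was -0.16.

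The 16 hemisphere calls became 75 with no filter on low counts (39 higher, 36 lower), 2 in the 48 h libraries alone (2 and 0), 22 without cells over 1% foreign transcripts and 7 to 29 with 1 library left out. For genotype the 0 calls became 30 with no filter (13 and 17), 4 with at least 20 B cells per library (4 and 0), 1 at 48 h alone (Prdx1), 44 in ipsilateral libraries alone (19 and 25), 6 without both 24 h libraries labelled Prdx1-/- and 1 to 8 with 1 library left out. The 14 time calls became 164 with no filter (41 and 123), 41 with at least 20 B cells (8 and 33), 62 in ipsilateral libraries (14 and 48), 22 without top doublet scores (4 and 18), 35 without cells over 1% foreign transcripts (9 and 26) and 9 to 52 with 1 library left out. The cause was not tested. For the named genes, 555 values kept their direction and side of the threshold, 123 lost the threshold, 24 gained it and none reversed. DESeq2 called 13, 0 and 15 genes, sharing 7 of the 16 hemisphere calls; 3 did not pass and 6 were given no adjusted p by its own filter. Depth limits the contralateral Prdx1-/- library at 24 h, where 10 cells and 45031 UMIs leave levels under 66.6 CPM within the limit that a count of 0 allows.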
